A study of Saccharum hybrid cultivar with 12 samples.

Results

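Described here are 4 unigenes that the study lists in its account of ATPases and sugar transport. They are called the ATPase unigenes here after that account. ACA2 is unigene c87964_g1, AATP1 is c87456_g3, the unigene named ATPase is c79387_g1 and ATPase2 is c101111_g2. They were taken by identifier from the 163054 unigenes listed for every library, and all 4 were among the 54433 that had enough counts to be tested. A unigene is the longest transcript of 1 subcomponent of a transcriptome assembled from the reads without a reference genome. The plants were field-grown sugarcane of 3 genotypes, ROC22 (HS, sucrose content 15%), YT71-210 (MS, 12.6%) and GT86-887 (LS, 6%). In each genotype some plants received a foliar spray of water (CK) and others a spray of ethylene solution at 400 mg/L made from ethephon (T), a compound that breaks down in plant tissue and releases ethylene. RNA came from developing stalk tissue cut a week after spraying. With 2 biological replicates in each of the 6 groups there were 12 libraries, and no group carried any other treatment.

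ATPases of plant membranes spend ATP to move ions across the plasma membrane, the vacuolar membrane and the membranes of other compartments. Proton pumps of this kind acidify the cell wall space and the vacuole, and sucrose carriers use the resulting proton gradient to move sugar, which is why ATPases are discussed together with sugar loading and storage in the sugarcane stalk. Calcium pumps return Ca2+ from the cytosol to stores or to the outside and so end calcium signals. Ethylene is a gaseous hormone that acts in ripening, senescence and stress responses, and ethephon is used on sugarcane as a ripener.

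Each unigene has a short name in the study and no further description. ACA2 is in Arabidopsis the symbol of an autoinhibited Ca2+-ATPase, a calcium pump held back by its own terminus until calmodulin binds. AATP1 has been used in Arabidopsis for more than 1 protein, an AAA-type ATPase and a plastid carrier that exchanges ATP for ADP, and which of them c87456_g3 resembles was not given. For "ATPase" and "ATPase2" the class of pump was not given either. No sequence or annotation of the unigenes was used here, so neither the names nor the location in a membrane could be checked, and the stalk tissue could not be checked by marker genes. The study named these unigenes in its account of the response to ethephon and plotted them in LS and HS. It described them as significantly induced by ethylene and gave no further basis of choice. Its abstract also reports that ethylene induced ATPase more strongly in LS than in HS. A rise in those genotypes, or a larger rise in LS than in HS, is therefore not independent evidence, and MS was not part of that plot.

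Library totals lay between 19765600 and 28747100 counts. Each table holds an expected count (a number of reads shared out among unigenes by a model) and an FPKM, a level that takes account of how long the unigene is and how deeply the library was sequenced. Differences were tested on the counts, scaled between libraries, with edgeR's quasi-likelihood test on all 12 libraries in 1 model. A unigene is called here when the p-value adjusted over all 54433 unigenes was under 0.005 and the fold change was over 2. The labels do not say whether the biological replicates came from separate plots, so the p-values cover the spread between these libraries, whatever its source. RNA was taken from whole tissue, in which fewer cells of a type and less RNA per cell cannot be told apart.

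c87964_g1 (ACA2) had the most counts of the 4 members in the LS libraries. Under water its FPKM was 14.37 and 13.27 in LS, 5 and 5.49 in MS, and 13.23 and 13.93 in HS (replicates 1 and 2). After ethephon it was 127.4 and 93.43 in LS, 10.76 and 9.09 in MS, and 25.46 and 15.96 in HS. In every genotype both sprayed libraries lay above both water libraries, and the LS_T libraries stood far above the other 10. The share of all tested unigenes with the latter pattern was not counted. The counts behind these levels were 220 and 209 in LS_CK and 2082 and 1314 in LS_T. In LS the unigene rose 8.52-fold, a log2 fold change of 3.09 ± 0.21 (SE, n = 2 against 2) with a 95% interval from 2.62 to 3.56 and an edgeR adjusted p of 7.71e-05. In MS the log2 fold change was 0.82 ± 0.22 (edgeR adjusted p = 0.142) and in HS 0.60 ± 0.21 (edgeR adjusted p = 0.973), neither past the limits. Within the LS libraries it moved from above 86.6% and 85.8% of the unigenes with an FPKM over 0 under water to above 98.8% and 98.0% of them after ethephon.

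c87456_g3 (AATP1) was scarce in every water library. Its FPKM under water was 0.27 and 2.54 in LS, 0.44 and 0.21 in MS, and 1.45 and 2.56 in HS. After ethephon the FPKM was 32.98 and 25.34 in LS and 27.34 and 14.25 in HS, but 0.48 and 1.97 in MS. The 4 sprayed LS and HS libraries thus lay above the other 8, and both MS_T libraries stayed within the range of the water libraries of LS and HS. The share of all tested unigenes with such a split was not counted. The counts were 4 and 39 in LS_CK, with exact Poisson intervals (95%) of 1.09 to 10.2 and 27.7 to 53.3, against 528 and 340 in LS_T. The HS counts were 23 and 37 under water and 416 and 199 after ethephon, while MS had 6 and 3 under water and 7 and 38 after ethephon. In LS the unigene rose 21.8-fold, with a log2 fold change of 4.44 ± 0.70 (SE, n = 2 against 2), an interval from 2.90 to 5.99 and an edgeR adjusted p of 0.00334. In HS the log2 fold change was 3.38 ± 0.67 (interval 1.91 to 4.86), and its edgeR adjusted p of 0.289 missed the threshold. DESeq2's Wald test on the same counts gave an adjusted p of 0.00153 for HS, past both limits. That test also called more of all unigenes in HS than edgeR did. In MS the log2 fold change was 1.87 ± 1.02 (interval -0.37 to 4.11, edgeR adjusted p = 0.503), so that MS could not be placed on either side of 0.

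c79387_g1 (ATPase) had counts of 22 and 41 in LS_CK, 85 and 66 in MS_CK and 63 and 85 in HS_CK. After ethephon the counts were 212 and 217 in LS, 158 and 355 in MS, and 193 and 95 in HS. On the CPM scale, which sets each count against its library total, the sprayed libraries lay above the water libraries in every genotype, from 0.914 and 1.66 to 8.47 and 11.03 in LS, from 4.12 and 3.25 to 7.39 and 11.4 in MS, and from 2.74 and 4.25 to 8.87 and 4.96 in HS. In LS the unigene rose 7.53-fold, with a log2 fold change of 2.91 ± 0.40 (SE, n = 2 against 2), an interval from 2.04 to 3.78 and an edgeR adjusted p of 0.00151. The log2 fold change was 1.35 ± 0.36 in MS (edgeR adjusted p = 0.141) and 0.99 ± 0.36 in HS (edgeR adjusted p = 1), neither past the limits. On the FPKM scale the groups were less separate, with 2.92 and 8.97 in LS_CK against 19.53 and 27.02 in LS_T, and 5.2 and 7.95 in MS_CK against 9.11 and 18.41 in MS_T. The FPKM of HS overlapped, with 3.34 and 8.75 under water and 21.72 and 6.2 after ethephon. In limma on log2(FPKM + 1) the LS difference was 1.94 with an adjusted p of 0.0813, and the call was lost.

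c101111_g2 (ATPase2) rested on 0 to 17 counts per library. The counts were 0 and 3 in LS_CK, 3 and 4 in MS_CK and 4 and 3 in HS_CK, and after ethephon 15 and 15 in LS, 8 and 17 in MS, and 17 and 8 in HS. Its FPKM was 0 and 3.23 in LS_CK, 3.78 and 5.11 in MS_CK and 4.63 and 3.61 in HS_CK, against 16.02 and 16.69 in LS_T, 9.45 and 14.69 in MS_T and 19.17 and 9.89 in HS_T. All 6 sprayed libraries lay above all 6 water libraries on both scales, a pattern whose share among all tested unigenes was not counted. The count of 0 in LS_CK replicate 1 allows up to 3 counts, or 0.125 CPM, in that library, and its two-sided exact Poisson interval (95%) ends at 3.69 counts. Summed over replicates, 30 counts against 3 in LS gave a ratio of 10.9 after scaling by library totals multiplied by their TMM factors (exact 95% interval 3.40 to 55.9, which covers counting error only). The ratio was 3.76 in HS (1.58 to 10.3) and 2.78 in MS (1.17 to 7.61). In edgeR's test the log2 fold change was 3.35 ± 0.75 in LS (adjusted p = 0.0183), 1.86 ± 0.66 in HS (adjusted p = 1) and 1.42 ± 0.67 in MS (adjusted p = 0.424), so that this unigene was not called in any genotype. It was called in LS in 3 of the 9 alternatives that kept all libraries. Among these were the fit with no count filter and the limit of an adjusted p of 0.05 alone. The 9 also include the sum of counts over its assembly component, nearly all of which belong to c101111_g1. A call of that sum is not a call of c101111_g2.

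**Figure D1:**
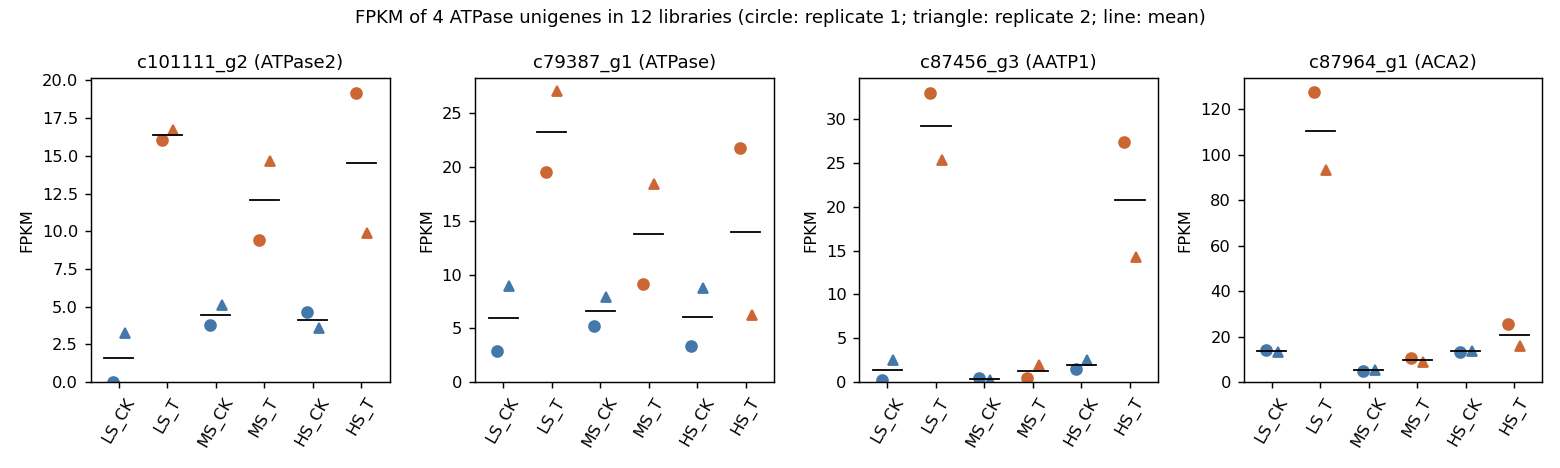
FPKM of each of the 4 ATPase unigenes (vertical axis, a separate linear scale for each panel) in the 6 groups, with circles for replicate 1, triangles for replicate 2 and a line at the mean of both; blue marks water (CK) and orange ethephon (T). ACA2 reached 127.4 and 93.43 in LS_T, AATP1 rose in LS_T and HS_T but lay at 0.48 and 1.97 in MS_T, and the HS replicates of ATPase overlapped.

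Taken as a group, 3 of the 4 members (c79387_g1, c87456_g3 and c87964_g1) were called higher in LS, where 1.91% of all tested unigenes were called higher and 2.24% were called in either direction. The study named them as induced by ethylene, so nothing is read from this count. None was called in HS, where 0.011% of unigenes were called by edgeR. All 4 members had an unadjusted p under 0.05 there, where an edgeR p of 0.0456 had rank 2025 among the 54433 unigenes. DESeq2, which called more of all unigenes in HS than edgeR did, called 1 (c87456_g3), and limma on log2(FPKM + 1) called 0. None was called in MS, where 0.00184% of unigenes were called. There 2 members (c79387_g1 and c87964_g1) had an unadjusted p under 0.05, and DESeq2 and limma called 0. For scale, an edgeR p of 0.0566 in MS had rank 7256 among the 54433. The median log2 fold change of the 4 was 3.22 in LS, 1.43 in HS and 1.39 in MS, beside medians of -0.08, 0 and 0 over all tested unigenes. In CPM both sprayed libraries lay above both water libraries for 4 of 4 members in each genotype, as they did for 22.6% of all tested unigenes in LS, 14.3% in HS and 21.4% in MS. In FPKM this held for 4 members in LS, 4 in MS and 3 in HS, beside 18.9%, 24.2% and 12.6% of all tested unigenes. Of 2 libraries against 2, an exact permutation test of a single unigene cannot give a two-sided p below 0.333.

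Averaged over the 3 genotypes, ethephon raised c87456_g3 by a log2 fold change of 3.23 ± 0.45 (edgeR adjusted p = 0.00246), c79387_g1 by 1.75 ± 0.22 (edgeR adjusted p = 0.0013) and c87964_g1 by 1.504 ± 0.12 (edgeR adjusted p = 0.000174). These 3 were called, as were 0.775% of all tested unigenes in the upward direction and 0.974% in either direction. For c101111_g2 the mean log2 fold change was 2.21 ± 0.40, and its adjusted p of 0.00921 missed the threshold. The call of c79387_g1 was lost without either MS_CK library (adjusted p = 0.00622 without replicate 1 and 0.00633 without replicate 2). The call of c87456_g3 held in 5 of the 12 fits that left out a library. It was lost without HS_CK replicate 1, HS_T replicate 1, either MS_CK library, MS_T replicate 2 or either LS_T library, with a largest adjusted p of 0.0452 without MS_T replicate 2.

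**Figure D2:**
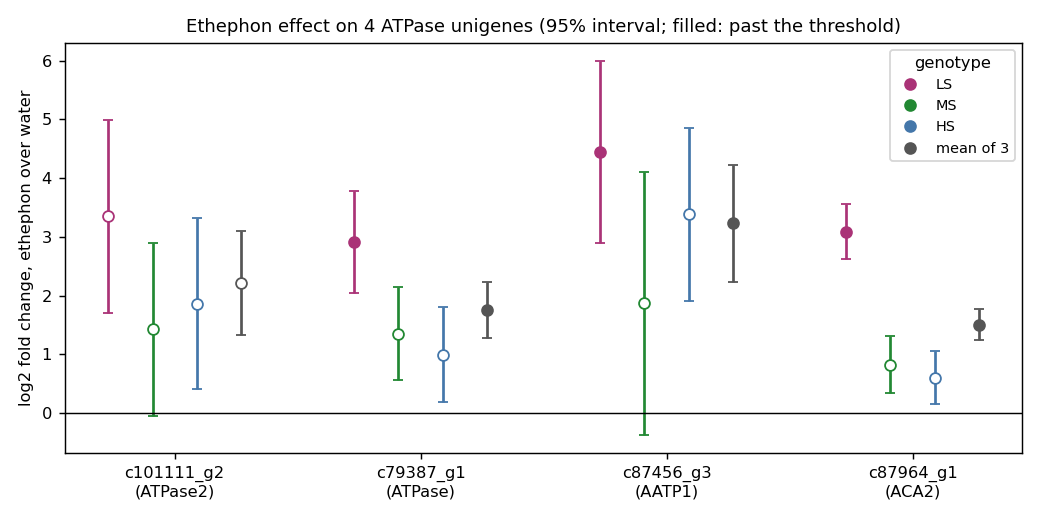
Log2 fold change of ethephon over water (vertical axis) for the 4 ATPase unigenes in LS, MS, HS and as the mean of the 3 genotypes, from edgeR's model of 12 libraries; bars are 95% intervals and filled points passed the adjusted p of 0.005 and the fold change of 2. Of the single genotypes only LS has filled points, at 2.91, 4.44 and 3.09, and the interval of ACA2 in LS (2.62 to 3.56) lies above its intervals in MS and HS.

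Whether the response differed between genotypes was tested as a difference of log2 fold changes, 3 pairs of genotypes for each of the 4 members. The study had described the members as induced from these same LS and HS libraries. A larger rise in LS than in HS or MS is therefore not independent evidence. For c87964_g1 (ACA2) the rise in LS exceeded that in MS by 2.27 ± 0.30 on the log2 scale (interval 1.60 to 2.93, edgeR adjusted p = 0.00433) and was called, beside 0.351% of all tested unigenes. The rise in LS exceeded that in HS by 2.49 ± 0.29 (interval 1.85 to 3.13), but the edgeR adjusted p of 0.00594 lay just outside the threshold, which 0.0386% of unigenes passed. No other difference between genotypes was called. For c79387_g1 the LS rise was larger than the HS rise by 1.92 ± 0.53 (interval 0.74 to 3.09, edgeR adjusted p = 0.148) and larger than the MS rise by 1.56 ± 0.53 (interval 0.40 to 2.72, edgeR adjusted p = 0.211). On log2(FPKM + 1) these differences of c79387_g1 were 0.96 and 1.03 (limma adjusted p = 0.676 and 0.596). c87456_g3 (AATP1) stayed low in the MS libraries, but its difference in response was not called, with LS minus MS at 2.58 ± 1.40 (interval -0.51 to 5.67, edgeR adjusted p = 0.465). For c101111_g2 the intervals ran from -0.87 to 3.84 for LS minus HS and from -0.44 to 4.29 for LS minus MS. Between MS and HS the differences of the 4 members ranged from -1.52 to 0.36, with edgeR adjusted p-values from 0.947 to 1, 0 unadjusted p-values under 0.05 and 0 calls by edgeR, DESeq2 or limma. Of all tested unigenes 0% were called by edgeR between MS and HS. The widest of these intervals, that of c87456_g3, ran from -4.50 to 1.47.

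Without ethephon, c87964_g1 (ACA2) was the only member called between genotypes. Its level in MS_CK, at 5.25 ± 0.346 FPKM (SD, n = 2), lay below 13.6 ± 0.495 in HS_CK and 13.8 ± 0.778 in LS_CK. HS exceeded MS by a log2 fold change of 1.44 ± 0.22 (edgeR adjusted p = 0.000923), and MS lay below LS by -1.26 ± 0.22 (edgeR adjusted p = 0.00156). HS and LS differed by 0.17 ± 0.21 with an interval from -0.28 to 0.63. Such differences were common, since 10.2% of all tested unigenes were called between HS and MS under water, 13.4% between MS and LS and 15.3% between HS and LS. The call between HS and MS was lost without HS_CK replicate 2 (adjusted p = 0.00557) and without either MS_CK library (largest adjusted p 0.0132). The call between MS and LS was lost without either MS_CK or either LS_CK library (largest adjusted p 0.0185). For c79387_g1 both HS and MS were higher than LS under water by 1.43 ± 0.40 and 1.51 ± 0.40, with edgeR adjusted p-values of 0.018 and 0.015 that missed the threshold. On the FPKM scale the water means of c79387_g1 were 6.05 ± 3.83 in HS, 6.58 ± 1.94 in MS and 5.95 ± 4.28 in LS (SD, n = 2), and in limma on log2(FPKM + 1) the differences from LS were 0.057 for HS (adjusted p = 0.962) and 0.25 for MS (adjusted p = 0.808). For c87456_g3 the difference of HS over MS was 2.65 ± 0.97 (edgeR adjusted p = 0.0671).

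After ethephon c87964_g1 was highest in LS, at 110.4 ± 24.0 FPKM (SD, n = 2), then in HS at 20.7 ± 6.72 and in MS at 9.93 ± 1.18. LS exceeded HS by a log2 difference of 2.32 (HS minus LS -2.32 ± 0.21, edgeR adjusted p = 2.94e-05) and exceeded MS by 3.53 (MS minus LS -3.53 ± 0.22, edgeR adjusted p = 3.55e-06). HS exceeded MS by 1.21 ± 0.21 (edgeR adjusted p = 0.00167), a call that was lost without HS_T replicate 1 (adjusted p = 0.0159) and without MS_T replicate 2 (adjusted p = 0.0242). c87456_g3 (AATP1) after ethephon was 18.01-fold higher in HS than in MS, with a log2 difference of 4.17 ± 0.70 (edgeR adjusted p = 0.00142), and lower in MS than in LS by -4.55 ± 0.70 (edgeR adjusted p = 0.000711). The first of these calls was lost without HS_T replicate 1 (adjusted p = 0.00941) or either MS_T library (0.0129 and 0.00673), and the second without MS_T replicate 1 (0.0083). Between HS_T and LS_T this unigene differed by -0.38 ± 0.57, with an interval from -1.63 to 0.87. c79387_g1 and c101111_g2 were not called between any genotypes after ethephon, and their 6 log2 differences lay between -0.53 and 0.37. Called differences between genotypes after ethephon made up 14.5% (HS and LS), 11.9% (HS and MS) and 14.9% (MS and LS) of all tested unigenes.

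Compared per length, the order of the 4 members changed with genotype and treatment. By FPKM, ACA2 was the highest of the 4 in both libraries of HS_CK, LS_CK and LS_T and in 1 library each of HS_T and MS_T. AATP1 was the lowest in both libraries of HS_CK, MS_CK and MS_T, but it was the highest of the 4 in HS_T replicate 1 (27.34 against 25.46 for ACA2) and the runner-up in HS_T replicate 2. In HS_T the group means of ACA2 and AATP1, 20.7 ± 6.72 and 20.8 ± 9.26 FPKM, differed by less than their spread. In MS_CK the means of ATPase (6.58 ± 1.94), ACA2 (5.25 ± 0.346) and ATPase2 (4.45 ± 0.94) also lay within the spread of their neighbours, and AATP1 was apart from them at 0.325 ± 0.163. In LS_T, ACA2 at 110.4 ± 24.0 was apart from AATP1 (29.2 ± 5.40), ATPase (23.3 ± 5.30) and ATPase2 (16.4 ± 0.474), of which AATP1 and ATPase overlapped between libraries.

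Of the 4 members, 2 share their assembly component with other unigenes, to which the same reads may have been divided. c101111_g1, the other unigene of the component of ATPase2, had 166 to 280 counts in the water libraries, 684 and 624 in LS_T and 277 to 432 in the other sprayed libraries. It was called higher in LS, with a log2 fold change of 1.75 ± 0.21 (edgeR adjusted p = 0.000781). That call was lost without LS_CK replicate 1 and in a fit of the LS libraries alone. Its log2 fold changes were 0.46 ± 0.20 in HS and 0.15 ± 0.21 in MS, neither past the limits. c101111_g2 held 0 to 1.56% of the counts of that component in the water libraries and 2.15 to 3.95% in the sprayed ones. With counts summed over this component, the LS difference was 1.77 on the log2 scale, close to that of c101111_g1. The component of AATP1 holds c87456_g1 and c87456_g2, whose log2 fold changes were 0.15 and -0.10 in LS, 0.15 and 0.06 in HS and -0.08 and -0.16 in MS, none of them called. c87456_g3 held 0.42% and 3.84% of the component's counts in LS_CK, and 36.2% and 26.6% in LS_T. In HS its share went from 2.27% and 3.89% to 29.2% and 16.9%, and in MS from 0.673% and 0.409% to 0.824% and 3.40%. With counts summed over the component of AATP1, the LS difference was 0.60 on the log2 scale (edgeR adjusted p = 0.0168) and was not called, since the 2 unigenes that did not pass the test hold most of the counts. Whether the unigenes of a component are alleles, copies or splice forms of 1 gene was not given.

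**Figure D3:**
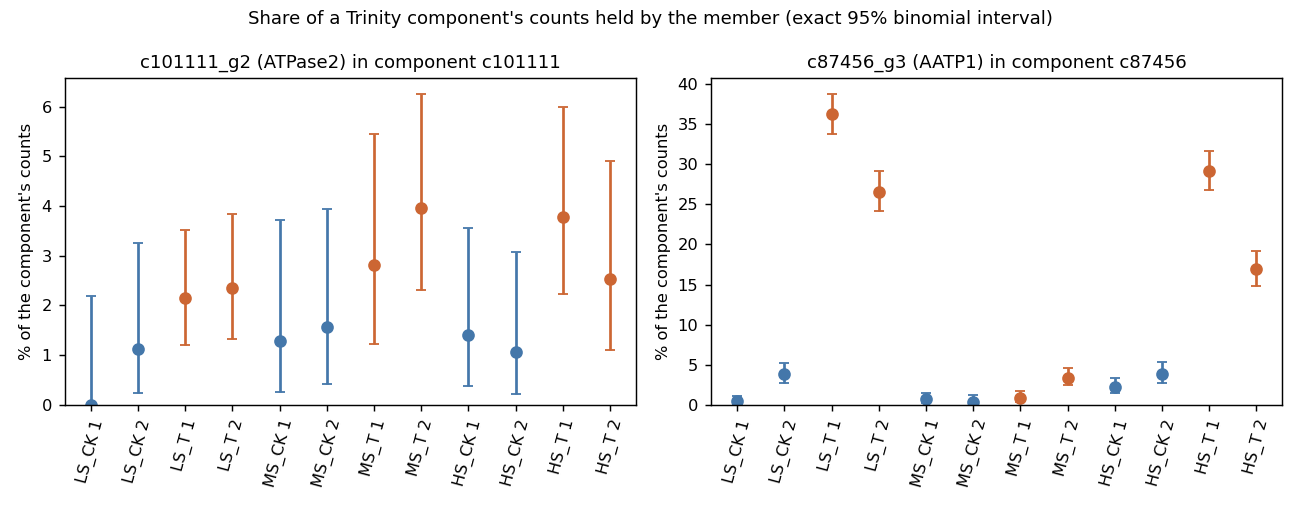
Share of the counts of an assembly component held by the member (vertical axis, percent, linear from 0) in each of the 12 libraries, for ATPase2 in component c101111 on the left and AATP1 in component c87456 on the right; bars are exact 95% binomial intervals, which cover counting error only, blue marks water and orange ethephon. The AATP1 share was 36.2% and 26.6% in LS_T and 29.2% and 16.9% in HS_T and did not exceed 3.89% in the other 8 libraries, whereas the wide intervals for ATPase2 overlap between treatments.

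For c79387_g1 (ATPase) the deposited FPKM and the CPM computed here from the deposited counts differed, which did not occur to this extent in the other members. The ratio of mean levels after ethephon to those under water in LS was 3.92 in FPKM and 7.58 in CPM. It was 2.31 and 1.98 in HS, and 2.09 and 2.54 in MS. The length by which the count was divided can be worked back from each library's count, FPKM and total. For c87456_g3 this implied length was 667 to 679 bases over the 12 libraries and for c87964_g1 649 to 724 bases. For c79387_g1 it ran from 200 to 802 bases, a 4.01-fold range, with 340 and 200 bases in LS_CK, 454 and 406 in LS_T, 793 and 450 in HS_CK and 392 and 735 in HS_T. An implied length that varies between libraries occurs where reads are spread over several transcripts of unequal length within a unigene, but the transcripts of this unigene were not examined and their part was not tested. For c101111_g2 the implied length was only 36.3 to 45.5 bases, which is below the shortest unigene in the study's assembly. The implied length is therefore a divisor and not the length of the sequence. With so small a divisor, a few counts of c101111_g2 gave an FPKM of the size seen in members with far more counts. Its FPKM of 19.17 in HS_T replicate 1 rests on 17 counts, and the 21.72 of c79387_g1 in the same library on 193.

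**Figure D4:**
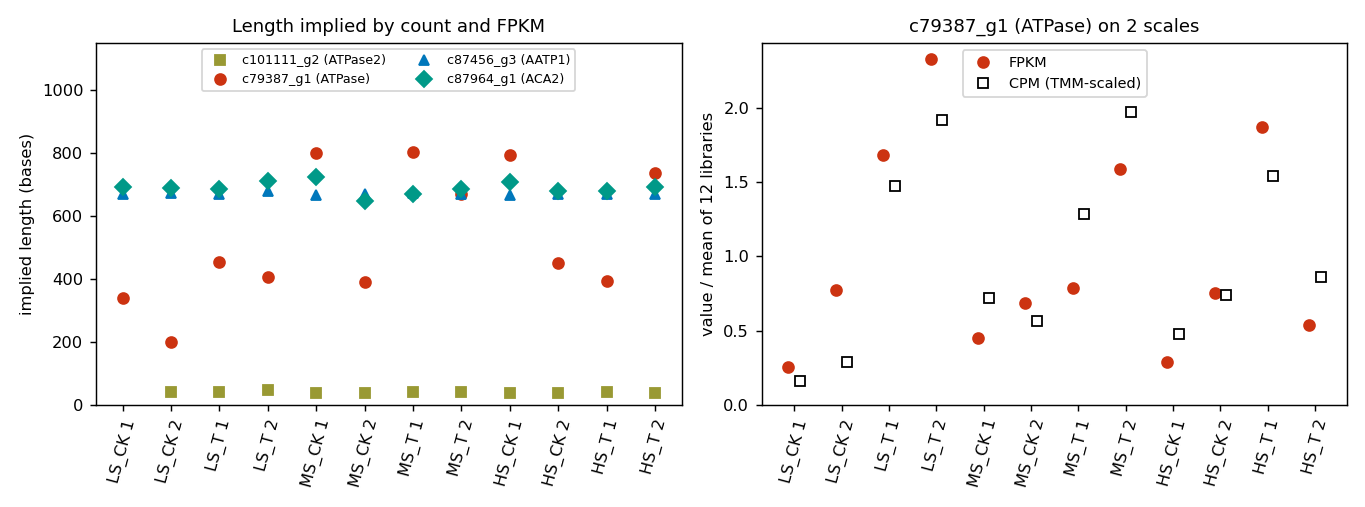
On the left, the length in bases implied by count, FPKM and library total (vertical axis) for the 4 ATPase unigenes in each of the 12 libraries; on the right, c79387_g1 in FPKM (filled circles) and in TMM-scaled CPM (open squares), each divided by its own mean over the 12 libraries. The implied length of c79387_g1 ran from 200 to 802 bases while that of c87456_g3 stayed between 667 and 679, and its LS_CK libraries sit lower in CPM than in FPKM.

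Replicates of a group differed in level. In HS_T replicate 1 exceeded replicate 2 in all 4 members, by 0.78 (c101111_g2), 0.83 (c79387_g1), 0.87 (c87456_g3) and 0.59 (c87964_g1) in log2 CPM with a prior count of 2, which shrinks differences at low counts. Over all tested unigenes the median of that difference was 0, and over the 1042 unigenes called higher in LS it was 0.27. On the same scale replicate 1 of LS_CK was below replicate 2 by -2.71 for c87456_g3 and -0.80 for c79387_g1, while c87964_g1 differed by 0.11. In MS_T replicate 1 was below replicate 2 by -1.65 for c87456_g3 and above it by 0.34 for c87964_g1. Without a prior count the CPM of c87456_g3 differed 9.49-fold between the LS_CK replicates and 3.71-fold between the MS_T replicates. The main model gave replicates 1 and 2 no order, and what set them apart was not tested.

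Each library was left out of the model in turn. Where an LS library was left out, its group held 1 library, which was assumed to vary like those of the other groups. In LS c87964_g1 was called in all 12 fits that each left out 1 library, with log2 fold changes from 2.93 to 3.24. c79387_g1 was called in 9 of 12 and lost its call without LS_CK replicate 1 (adjusted p = 0.0216), LS_CK replicate 2 (0.00904) or LS_T replicate 2 (0.00855), with log2 fold changes from 2.55 to 3.41. c87456_g3 was called in 6 of 12, and its log2 fold change was 3.602 without LS_CK replicate 1 and 6.81 without LS_CK replicate 2, with adjusted p-values of 0.0177 and 0.00528. Its call was also lost without LS_T replicate 1 (0.013), LS_T replicate 2 (0.0104), MS_CK replicate 1 (0.00722) and MS_CK replicate 2 (0.00619). c101111_g2 was called in 0 of the 12 fits, and its log2 fold change ran from 2.43 to 6.94, the highest of these without LS_CK replicate 2, when LS_CK holds 0 counts and the value depends on the constant added to the counts. The larger response of ACA2 in LS than in MS was called in 4 of the 12 fits. It was lost without any 1 of the 4 MS and 4 LS libraries, when the difference still lay between 2.10 and 2.48 and the highest adjusted p was 0.0313.

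**Figure D5:**
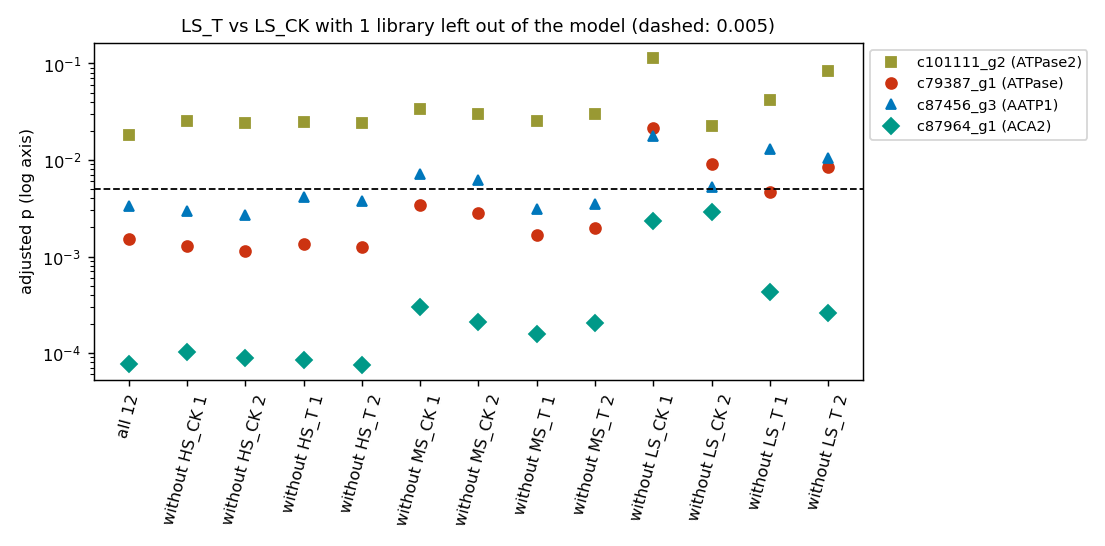
Adjusted p of LS_T vs LS_CK (vertical log axis) for the 4 ATPase unigenes with all 12 libraries and with each library left out of edgeR's model in turn; the dashed line is at 0.005. ACA2 stayed below the line in all fits (highest adjusted p 0.00289), ATPase2 stayed above it, and ATPase and AATP1 crossed it mainly when an LS library was left out.

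The study discusses these ATPases with enzymes that make and split sucrose, and 8 unigenes that it names for these were followed in the same fits. They were chosen by the study on these samples, so their direction is not independent evidence. The list holds an invertase that the study places in the cytosol (CINV2) and cell wall invertases (CWINV3), which split sucrose into glucose and fructose. It also holds sucrose phosphate synthase (SPS1F) and sucrose phosphate phosphatase (SPP2), which make sucrose in consecutive steps, and sucrose synthase (SUS3, SUS4), which acts in either direction and mostly splits sucrose in sink tissue. In LS 1 of the 8 was called higher and 0 lower, beside 1.91% of all tested unigenes called higher. This was SPP2 (c91176_g1), from 6.69 ± 0.283 to 19.1 ± 0.219 FPKM (SD, n = 2), with a log2 fold change of 1.51 ± 0.22 (edgeR adjusted p = 0.00192). The count fell to 0 without any 1 of the 4 LS libraries and in limma on FPKM at either pseudocount, and rose to 3 with no count filter or with a limit of 0.05 on the adjusted p alone. The log2 fold changes of the other 7 in LS were 0.47 for CINV2, 0.92 and 1.21 for the CWINV3 unigenes c102611_g1 and c102611_g2, 0.34 and 0.32 for SPS1F (c72504_g1 and c72030_g1), 0.30 for SUS3 and 0.87 for SUS4. Their median over the 8 was 0.67 in LS, 0.14 in HS and 0.33 in MS, beside 3.22, 1.43 and 1.39 for the 4 ATPase unigenes. In HS 0 of the 8 were called and 0 had an unadjusted p under 0.05, with 0 calls by DESeq2 or limma. In MS 0 were called by edgeR or limma and 3 had an unadjusted p under 0.05. DESeq2, which called more of all unigenes in MS than edgeR did, called 1 there. In LS 5 of the 8 had an unadjusted p under 0.05. Such values were common among the 54433 tested unigenes, where an edgeR p of 0.0212 had rank 9304 in LS and one of 0.0566 had rank 7256 in MS.

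Over the 12 libraries the members differed in how far they resembled each other. Pearson's r of log2 CPM was 0.94 between c101111_g2 and c79387_g1 and 0.83 between c87456_g3 and c87964_g1. It was 0.75 between c101111_g2 and c87456_g3, and the remaining pairs lay between 0.42 and 0.58. These are descriptions over 12 libraries that share their treatment groups, and they carry no test. By the same measure, the unigenes most like ATPase2 were c95569_g3 (0.96), c95569_g2 (0.96) and c77821_g1 (0.95). Those most like ATPase were c84382_g1 (0.96), c90479_g1 (0.95) and c95569_g2 (0.95), so that c95569_g2 appeared for both. Those most like AATP1 were c80746_g3 (r = 0.997), c85715_g1 (0.97) and c85093_g1 (0.97). c80746_g3 also had a like size of response, with log2 fold changes of 4.16 in LS, 3.23 in HS and 1.56 in MS, whereas c85715_g1 changed by 0.69, 0.34 and 0.33. Those most like ACA2 were c100794_g1 (0.99), c65954_g1 (0.99) and c89206_g1 (0.98), with log2 fold changes in LS of 1.35, 1.71 and 1.65. An r above 0.9 was reached by 21 tested unigenes with ATPase2, 39 with ATPase, 57 with AATP1 and 342 with ACA2. No gene name was used here for any of these unigenes.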

How the data were processed

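The authors removed adapters and low-quality reads, assembled all clean reads with Trinity, took the longest transcript of a subcomponent as unigene and aligned reads with RSEM (version not stated). The deposited expected counts carry no scaling between libraries. The deposited FPKM values were made by the authors from these counts, a length for each unigene and mapped fragments. The sources do not define that length, and for c101111_g2 it fell below the study's shortest unigene. Technical replicates (2 or 3, depending on the source) were merged before deposit.

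Expected counts were rounded and tested with edgeR 4.0.16 in R 4.3.3, with filterByExpr (minimum count of 10), TMM factors (0.919 to 1.09), glmQLFit and glmQLFTest, 1 coefficient per group and 6 residual degrees of freedom. P-values were adjusted by the method of Benjamini and Hochberg across the tested unigenes, and the limits of 0.005 and 2-fold are those of the study's own test, DEGseq, which was not run. The standard error is the log2 fold change divided by the square root of F. CPM are TMM-scaled, with a prior count of 2 for correlations and for log2 differences between replicates. The 13 comparisons of 4 members make 52 tests. Replicates were distinct libraries (chi-square divided by its degrees of freedom, 6.67 to 25.7).

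Named are the 4 members, every tested unigene of their components, the 8 sucrose and invertase unigenes, and for each member the 3 unigenes with the highest r. Members, lists and tests were chosen with earlier results of these data known. The alternatives replaced TMM by the size factors of DESeq2 (1.42.0), edgeR by DESeq2's Wald test or by limma (3.58.1) on log2(FPKM + 1) or log2(FPKM + 0.1), dropped the count filter, used a looser limit (0.05 on the adjusted p alone), summed counts per component, fitted only the libraries compared, added the replicate number as a block, or omitted a library. Scripts were tested on simulated data. Python 3.11.15 with matplotlib 3.10.9 drew the figures.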

Additional observations from a re-analysis of the deposited data

Results flagged for a closer look

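The response of c87964_g1 (ACA2) to ethephon differed between LS and MS. The study had described this unigene as induced from the same LS libraries, so the difference is not independent evidence. The log2 fold change in LS (3.09) exceeded that in MS (0.82) by 2.27, with an edgeR adjusted p of 0.00433 over 54433 tested unigenes. Both LS_T libraries (127.4 and 93.43 FPKM) lay above both LS_CK libraries (14.37 and 13.27), and in MS the sprayed libraries (10.76 and 9.09) lay above the water libraries (5 and 5.49) by less. The threshold was no longer passed when any 1 LS or MS library was left out.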

How the results depend on the processing

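Of the members called in LS (3), HS (0), MS (0) and in the mean of 3 genotypes (3), limma on log2(FPKM + 0.1) left 1 in LS and 1 in the mean. DESeq2's Wald test called 1 in HS (c87456_g3). With every unigene with at least 1 count tested, 1 member was called in HS, 2 in MS and 4 in LS, where the looser limit also gave 4. DESeq2, the dropped filter and the looser limit each called more of all unigenes in LS, HS and MS, as given below. The DESeq2 fit and the fit with no count filter started from every unigene with at least 1 count, a larger set than the 54433. Their totals are therefore not shares of the 54433. Nothing is read from the added member calls. Of the 12 tests of a difference in response, 1 was called at the main settings, 2 with DESeq2's size factors, 2 with its Wald test, 3 with no count filter, 2 at the looser limit of 0.05 on the adjusted p alone, and 0 in limma at either pseudocount or with counts summed per component. Of the 12 tests between genotypes under water, 2 were called, but 6 with no count filter, 4 at the looser limit and 1 with only the libraries compared. After ethephon 5 of 12 were called, and 3 with limma on log2(FPKM + 0.1). In the fits with only the libraries compared, c101111_g2 in HS and MS and c87456_g3 in MS were not kept by the count filter.

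Leaving out 1 library in turn gave 1 to 3 members called in LS, 0 to 0 in HS and in MS, 1 to 3 in the mean of 3 genotypes, 0 to 1 differences in response, 0 to 2 differences under water and 3 to 5 after ethephon.

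With the replicate block, 2 differences in response were called in place of 1, since c87964_g1 for LS minus HS reached an adjusted p of 0.00438. No other count of member calls changed under the block. Whether the replicate numbers pair the libraries could not be settled from so few pairs. Deviations of libraries of 1 number correlated between -0.11 and 0.24 within genotypes (3 pairs, 1 over 0.1) and between -0.17 and 0.38 across genotypes (12 pairs, 2 over 0.1). The values over 0.1 were those of HS_CK with HS_T (0.24), HS_CK with MS_CK (0.38) and HS_T with MS_CK (0.28).

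Some values that were not called turned their sign. With counts summed per component, c87456_g3 was -0.073 in MS after ethephon against water, and 0.049 for HS minus LS after ethephon, and c101111_g2 was 0.14 for HS minus MS under water. On FPKM + 1 and FPKM + 0.1, c79387_g1 was -0.064 and -0.088 for the response in MS minus HS, and c87964_g1 was -0.023 and -0.024 for HS minus LS under water. With libraries left out, the response in MS minus HS ran from -0.81 to 0.11 for c101111_g2 and from -0.036 to 0.57 for c87964_g1. Under water, HS minus LS ran from -0.16 to 3.04 for c87456_g3, HS minus MS from -0.27 to 0.20 for c101111_g2 and from -0.43 to 0.21 for c79387_g1, and MS minus LS from -2.81 to 0.39 for c87456_g3. After ethephon, HS minus LS ran from -0.66 to 0.21 for c101111_g2 and from -0.86 to 0.0027 for c87456_g3, HS minus MS from -0.13 to 0.74 for c101111_g2, and MS minus LS from -0.40 to 0.23 for c79387_g1. The cause was not tested.

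Over all unigenes that each fit tested, c87964_g1 included, the 1217 calls of LS became 2139 with DESeq2's Wald test, 4293 with no count filter, 5201 at the looser limit and 752 in limma on FPKM + 0.1. The 6 of HS became 64, 863, 19 and 2, and the 1 of MS became 501, 1845, 301 and 4 (187 with only the libraries compared, 26 with the block). In the same order, the 530 of the mean of 3 genotypes became 951, 1885, 3151 and 281, the 21 of LS minus HS became 622, 1739, 548 and 2, the 191 of LS minus MS became 951, 1809, 1072 and 8, and the 0 of MS minus HS became 30, 1058, 0 and 0. Between genotypes the 5532 to 8352 calls became 10340 to 14726 with no count filter and 14291 to 19554 at the looser limit. Leaving out a library gave 99 to 1529 calls in LS, 2 to 10 in HS and 0 to 19 in MS. No alternative that kept the unigenes separate turned the sign of a member's rise within a genotype. The lowest counts were those of c101111_g2, at 0 to 17, and c87456_g3 in MS, at 3 to 38.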
